A study of Mus musculus with 6 samples.

Results

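The 10 chemokine genes Ccl3, Ccl4, Ccl5, Ccl6, Ccl9, Cxcl1, Cxcl2, Cxcl3, Cxcl10 and Cxcl16 were followed in mouse eosinophils of the small intestine. They were taken by gene symbol from 23283 symbols, and each was represented by 1 RefSeq transcript at 1 locus. The cells came from the lamina propria of wild-type BALB/c mice and were cultured for 4 hours, either with GM-CSF at 10 ng/ml (3 cultures) or without it (3 untreated cultures). The labels describe neither the isolation of the eosinophils nor the animals behind each culture, so the p-values refer to variation among these cultures only. The level of each gene is its FPKM, in which fragments are divided by the length of the transcript and by library depth, so that genes can be compared.

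Chemokines are small secreted proteins that attract leukocytes by activating G protein-coupled receptors, and are divided by the spacing of their first cysteines into the CC and CXC families. Ccl3, Ccl6 and Ccl9 act on Ccr1, and Cxcl1, Cxcl2 and Cxcl3 attract neutrophils through Cxcr2. Cxcl10 is an interferon-induced ligand of Cxcr3, and Cxcl16 is a membrane-anchored ligand of Cxcr6. GM-CSF is a cytokine that prolongs the survival of eosinophils and activates them.

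The eosinophil markers Ccr3 and Siglecf (listed as Siglec5) were present in every library, at 230.4 to 275.5 FPKM in GM-CSF cultures and 267.2 to 315.5 FPKM in untreated cultures for Ccr3, and at 163.5 to 180.5 FPKM in GM-CSF cultures and 158.7 to 180.8 FPKM in untreated cultures for Siglecf. Between 0.820 and 1.32 gigabases of mapped sequence lay behind the values of a GM-CSF library, and between 0.917 and 0.974 gigabases behind those of an untreated library. Of 10140 genes whose mean reached 1 FPKM, 2209 (21.8%) passed an adjusted p of 0.05 by limma, of which 771 (7.6%) rose and 1438 (14.2%) fell with GM-CSF. This split depended on scaling, with 1006 risen and 1041 fallen genes after median-of-ratios scaling.

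Of the 10 chemokine genes, 8 reached a mean of 1 FPKM and were tested. Ccl6 and Cxcl3 rose, Ccl5 fell, and Ccl3, Ccl4, Ccl9, Cxcl1 and Cxcl2 did not pass the test. These 3 of 8 tested members are to be read against the 21.8% of all tested genes that passed. The same 3 genes were the members whose GM-CSF and untreated values did not overlap, as was seen for 39.2% of all tested genes. The median log2 fold change was -0.10 over the 8 tested members and -0.05 over all tested genes.

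**Figure D1:**
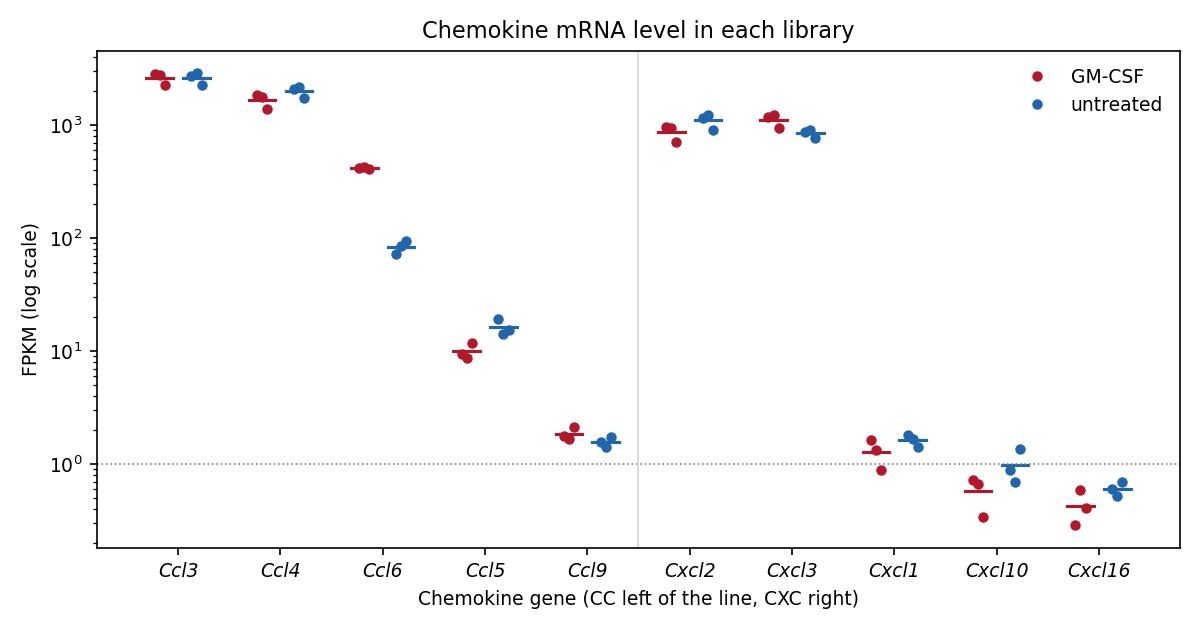
FPKM of the 10 chemokine genes on a log axis, with 1 point for each culture, GM-CSF left of untreated, a bar at each group mean and a dotted line at 1 FPKM. The GM-CSF points of Ccl6, between 411.8 and 428.0 FPKM, lie above all 3 untreated points, while the points of Ccl3 are intermingled.

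The member genes lie mostly in 2 clusters. On chromosome 11 of GRCm38, in GENCODE M21, Ccl5 (83525778 to 83530518, minus strand, 3 exons), Ccl9 (83572919 to 83578636, minus strand, 4 exons), Ccl6 (83587882 to 83593087, minus strand, 4 exons), Ccl3 (83647844 to 83649355, minus strand, 3 exons) and Ccl4 (83662584 to 83664683, plus strand, 3 exons) follow each other. On chromosome 5, Cxcl3 (90786103 to 90789600), Cxcl1 (90891241 to 90893115) and Cxcl2 (90903871 to 90905938) are all on the plus strand with 4 exons each, and Cxcl10 lies apart at 92346638 to 92348889 on the minus strand. Cxcl16 lies at 70453983 to 70459984 on the minus strand of chromosome 11, outside the cluster.

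The promoters of the 3 clustered CXC genes are shown because Cxcl1 lay far below Cxcl2 and Cxcl3 in level. Coding sequences of these genes are 72.7% to 89.7% identical in pairs, and their promoters 49.7% to 54.7%. The sequences are the 250 bases before the transcription start in RefSeq, GRCm38.p6, 5′ to 3′, with capitals marking matches to the motifs searched.
Cxcl1, chr5:90890995-90891244, plus strand: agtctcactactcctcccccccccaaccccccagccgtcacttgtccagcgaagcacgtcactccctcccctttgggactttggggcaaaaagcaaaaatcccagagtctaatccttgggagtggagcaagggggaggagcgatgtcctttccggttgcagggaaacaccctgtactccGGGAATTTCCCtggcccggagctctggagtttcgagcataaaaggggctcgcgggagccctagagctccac
Cxcl2, chr5:90903649-90903898, plus strand: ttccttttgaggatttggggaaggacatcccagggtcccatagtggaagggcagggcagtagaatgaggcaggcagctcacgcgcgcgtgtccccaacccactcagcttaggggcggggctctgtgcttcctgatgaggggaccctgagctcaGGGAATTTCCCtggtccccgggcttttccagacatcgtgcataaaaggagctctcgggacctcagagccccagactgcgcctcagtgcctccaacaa
Cxcl3, chr5:90785851-90786100, plus strand: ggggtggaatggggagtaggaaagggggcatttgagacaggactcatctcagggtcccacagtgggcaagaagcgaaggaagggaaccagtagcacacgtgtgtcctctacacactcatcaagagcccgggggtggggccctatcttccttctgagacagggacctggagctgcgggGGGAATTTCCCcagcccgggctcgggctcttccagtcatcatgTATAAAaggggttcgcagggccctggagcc
The stretch GGGAATTTCCC, a match to the NF-kB consensus, is the longest run common to all 3, and it ends 61, 87 and 63 bases before the start of Cxcl1, Cxcl2 and Cxcl3. An NF-kB match was found in 5 of the 7 member promoters in the table (Ccl9, Cxcl1, Cxcl2, Cxcl3 and Cxcl10) and in 3.899% of 32851 promoters of the same length. The other capitals in the Cxcl3 sequence mark TATAAA, found in 12.368% of promoters. Motifs were searched on both strands, and a match describes the sequence only. Ccl4, Ccl5 and Cxcl16 had no entry in the table.

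The neighbours Ccl6 and Ccl9, 9.2 kb apart, are shown next because their levels differ widely.
Ccl6, chr11:83593088-83593337, minus strand: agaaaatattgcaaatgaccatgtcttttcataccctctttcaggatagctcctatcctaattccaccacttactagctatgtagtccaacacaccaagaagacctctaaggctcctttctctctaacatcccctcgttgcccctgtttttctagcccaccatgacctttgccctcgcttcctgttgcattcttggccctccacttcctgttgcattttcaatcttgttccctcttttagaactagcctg
Ccl9, chr11:83578637-83578886, minus strand: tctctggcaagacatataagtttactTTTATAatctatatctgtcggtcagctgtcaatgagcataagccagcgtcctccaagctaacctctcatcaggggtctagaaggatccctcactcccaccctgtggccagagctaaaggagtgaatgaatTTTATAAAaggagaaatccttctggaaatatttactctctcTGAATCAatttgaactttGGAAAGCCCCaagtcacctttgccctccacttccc
In Ccl9 the capitals mark TATAAA on either strand, TGANTCA, the AP-1 motif, which 6.749% of promoters hold, and an NF-kB match. In this Ccl6 window there was no match to these 3 motifs or to the STAT motif TTCNNNGAA, which 7.02% of all promoters and none of the 7 member promoters held.

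Ccl6, a CC chemokine that attracts macrophages and other leukocytes through Ccr1 in mice, rose 4.99-fold. Its FPKM was 418.8, 428.0 and 411.8 in GM-CSF cultures 1, 2 and 3, against 72.4, 84.9 and 94.9 in untreated cultures 1, 2 and 3. The GM-CSF values differed by less among themselves than the untreated values did, with coefficients of variation of 1.93% in GM-CSF cultures and 13.4% in untreated cultures. Its log2 fold change of 2.31 (SE 0.09) had an adjusted p of 2.397e-05 in limma, and the call held in all 17 alternative analyses. Ccl6 had the 47th largest log2 fold change of the 10140 genes tested, and by its rise of 335.5 FPKM it was 13th of the 771 genes that rose. In the order by log2 fold change it stood just above Lap3, an aminopeptidase gene, at 2.28 (SE 0.06), which also rose. Its other neighbours in that order, Ankrd33b at 2.42 (SE 1.48), Sept7 at 2.33 (SE 1.82) and Arhgef1 at 2.25 (SE 2.01), did not pass.

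Ccl9, whose coding sequence is 64.6% identical to that of Ccl6 over 373 alignment columns, was near the limit of testing. It measured 1.78, 1.68 and 2.12 FPKM in GM-CSF cultures 1 to 3, against 1.56, 1.41 and 1.76 FPKM in untreated cultures 1 to 3. The groups overlapped, and the log2 difference was 0.15 with a 95% confidence interval of -0.10 to 0.39.

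Macrophage and dendritic cell markers were set beside Ccl6. Of the 12 genes listed, 6 were tested, Csf1r, Apoe and Lyz2 fell and none rose. Their summed level was 963.7 to 1037 FPKM in GM-CSF cultures and 921.2 to 990.9 FPKM in untreated cultures, most of it from Itgax and Emr1 (Adgre1), which intestinal eosinophils also express. Mean levels in GM-CSF and untreated cultures were 6.70 and 12.98 FPKM for Csf1r and 13.54 and 21.66 FPKM for Apoe. They were 12.92 and 17.62 FPKM for Lyz2 and 99.04 and 93.35 FPKM for Cd68, which did not pass. The macrophage complement genes C1qa, C1qb and C1qc lay between 0 and 0.640 FPKM in all 6 libraries. The part of macrophages in the Ccl6 result was not tested.

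Ccl3 and Ccl4, the macrophage inflammatory proteins 1-alpha and 1-beta, were the chemokine genes with the highest levels in both groups. Ccl3 measured 2845, 2791 and 2298 FPKM in GM-CSF cultures 1 to 3, against 2735, 2885 and 2279 FPKM in untreated cultures 1 to 3, and ranked between 8th and 13th of all genes in GM-CSF libraries and 11th or 12th in untreated libraries. Culture 3 was the lowest of either group, and the groups overlapped. The log2 difference was 0.01, with a 95% confidence interval of -0.27 to 0.29.

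Ccl4 measured 1873, 1773 and 1405 FPKM in GM-CSF cultures 1 to 3, against 2115, 2205 and 1728 FPKM in untreated cultures 1 to 3. The groups overlapped through GM-CSF cultures 1 and 2 and untreated culture 3. The log2 difference of -0.26 (95% confidence interval -0.59 to 0.06) did not pass. Ccl4 passed in 1 of 17 alternatives, with the replicate number as a block (adjusted p = 0.0244 in limma). Its coding sequence is 68.1% identical to that of Ccl3, and neither gene shares a 40-base word with any other gene.

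Ccl5, also called RANTES, which attracts T cells and eosinophils, fell to 0.608 of its untreated level. It measured 9.47, 8.69 and 11.8 FPKM in GM-CSF cultures 1 to 3, against 19.5, 14.2 and 15.5 FPKM in untreated cultures 1 to 3, without overlap. Its log2 fold change of -0.66 (SE 0.14) had an adjusted p of 0.0190 in limma, and the call ended without GM-CSF culture 1 (adjusted p = 0.0621) or without GM-CSF culture 2 (adjusted p = 0.0579). T cell markers moved with it. Of 10 markers listed, 9 were matched and 6 tested, and Cd3d, Cd3e, Cd3g and Lck fell. None of the matched T cell markers was at 0 in all libraries, and their summed level was 16.9 to 19.8 FPKM in GM-CSF cultures and 30.9 to 32.3 FPKM in untreated cultures. Ccl5 was 43.9% to 69.6% of that sum in GM-CSF cultures and 45.9% to 63.1% in untreated cultures, with overlap. Among natural killer and innate lymphoid cell markers, Gzma and Il7r fell of 3 tested, with sums of 6.12 to 8.28 FPKM in GM-CSF cultures and 9.28 to 11.5 FPKM in untreated cultures. The B and plasma cell markers Cd79a, Cd79b, Igj and Mzb1 fell, with Cd79a at 5.86 ± 0.42 FPKM in GM-CSF cultures and 9.92 ± 1.24 FPKM in untreated cultures (SD, n = 3 each). Of 8 tested epithelial markers Krt8, Krt18, Krt19 and Lyz1 fell, with sums of 56.0 to 69.7 FPKM in GM-CSF cultures and 86.1 to 92.2 FPKM in untreated cultures. Of 4 tested mast cell markers Kit and Gata2 fell, and of the pair of stromal and endothelial markers tested Pdgfra rose and Pecam1 fell. Of 6 tested eosinophil markers Epx, Il5ra and Alox15 fell and none rose. The part of these cells in the Ccl5 result was not tested, and in bulk RNA fewer cells of a type and less RNA per cell cannot be told apart.

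**Figure D2:**
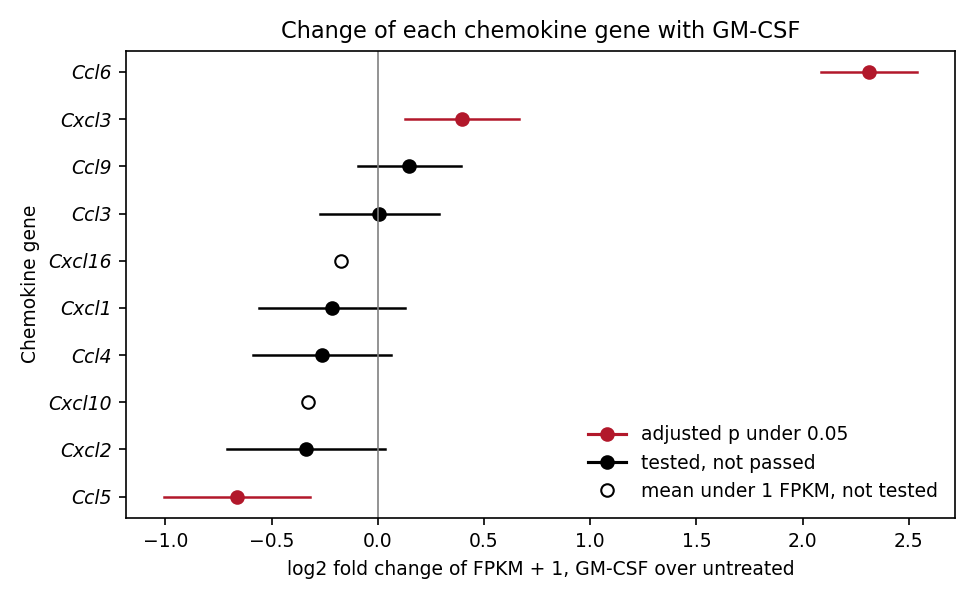
Log2 fold change of GM-CSF over untreated cultures on the log2(FPKM + 1) scale, for the 8 tested chemokine genes as filled points with 95% confidence intervals from limma (red where the adjusted p is under 0.05) and for Cxcl10 and Cxcl16, not tested, as open points. The intervals of Ccl6, Cxcl3 and Ccl5 lie clear of 0.

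Cxcl3, a neutrophil-attracting ligand of Cxcr2, rose 1.32-fold, while its close relative Cxcl2 did not pass. Cxcl3 measured 1191, 1226 and 952.5 FPKM in GM-CSF cultures 1 to 3, against 872.2, 909.6 and 767.3 FPKM in untreated cultures 1 to 3. The groups did not overlap, and a log2 fold change of 0.40 (SE 0.11) had an adjusted p of 0.0484 in limma. The call ended in 8 of 17 alternatives, among them leaving out any single library except GM-CSF culture 3 (adjusted p between 0.0771 and 0.136).

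Cxcl2, or macrophage inflammatory protein 2, measured 964.2, 938.5 and 716.5 FPKM in GM-CSF cultures 1 to 3, against 1169, 1237 and 906.2 FPKM in untreated cultures 1 to 3. The groups overlapped, and the log2 difference was -0.34 with a 95% confidence interval of -0.71 to 0.03. Cxcl2 passed in 1 of 17 alternatives, with the replicate number as a block (adjusted p = 0.0102 in limma). Cxcl2 and Cxcl3 share 89.7% of 300 coding positions, with an identical stretch of 98 bases, and 6.636% of the 40-base words of Cxcl2 and 7.267% of those of Cxcl3 occur in the other gene. No source used here tells how reads from shared stretches were assigned, and the split between the pair is uncertain to that extent. The sum of both genes was 2155, 2165 and 1669 FPKM in GM-CSF cultures 1 to 3, against 2041, 2146 and 1673 FPKM in untreated cultures 1 to 3, with overlap.

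Cxcl1, the third neutrophil-attracting member, was detected at a far lower level. It measured 1.62, 1.35 and 0.882 FPKM in GM-CSF cultures 1 to 3, against 1.797, 1.683 and 1.420 FPKM in untreated cultures 1 to 3. The groups overlapped, and the log2 difference of -0.22 (95% confidence interval -0.56 to 0.13) did not pass.

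Cxcl10 and Cxcl16 stayed under the mean of 1 FPKM needed for a test. Cxcl10 measured 0.721, 0.666 and 0.342 FPKM in GM-CSF cultures 1 to 3, against 0.897, 0.700 and 1.36 FPKM in untreated cultures 1 to 3. Cxcl16 measured 0.288, 0.593 and 0.411 FPKM in GM-CSF cultures 1 to 3, against 0.597, 0.527 and 0.700 FPKM in untreated cultures 1 to 3. The groups overlapped for either gene. Exons of Cxcl10 overlap those of Art3 by 133 bases and exons of Cxcl16 overlap those of Zmynd15 by 552 bases, on the opposite strand in both cases, so part of these low values is uncertain.

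The aligned sequence behind a value differed widely between members. Ccl3 rested on 1.49 to 2.92 megabases of aligned sequence per library and Ccl6 on 97.6 to 813.9 kilobases. Ccl5 rested on 4.48 to 9.71 kilobases, Cxcl1 on 0.69 to 1.69 kilobases and Cxcl10 on 0.31 to 1.37 kilobases.

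**Figure D3:**
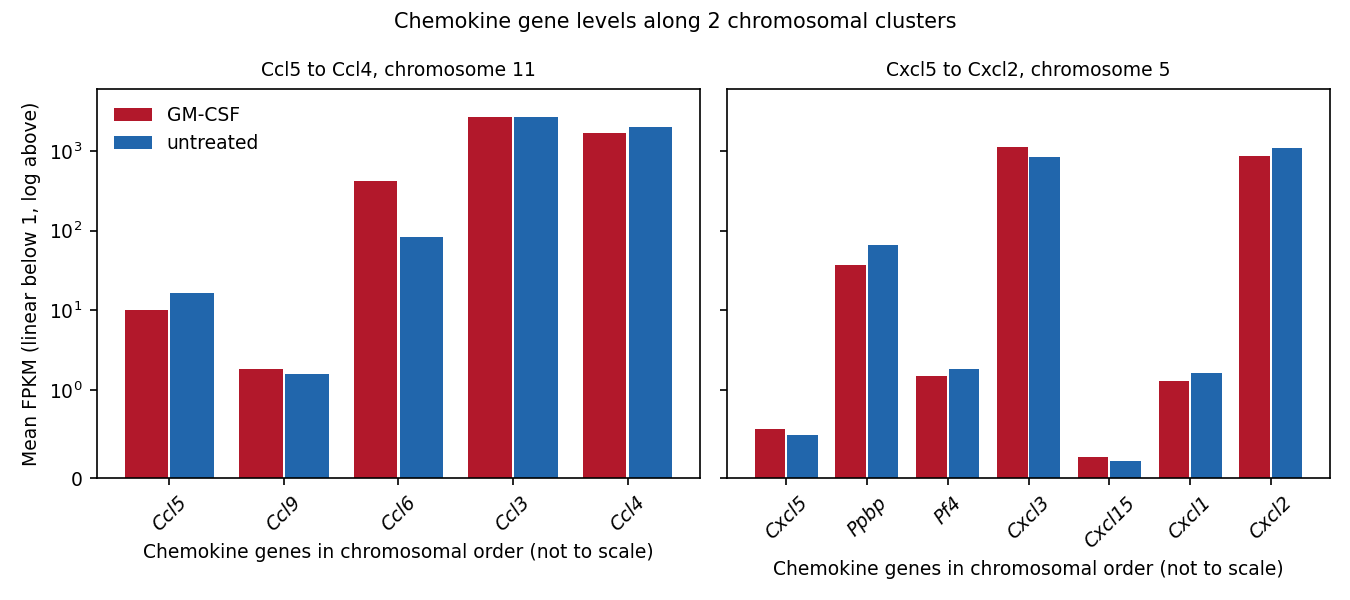
Mean FPKM of chemokine genes in chromosomal order, not to scale, in the chromosome 11 and chromosome 5 clusters, as bars with GM-CSF left of untreated, on an axis that is linear from 0 to 1 FPKM and logarithmic above. Ccl9, at 1.86 FPKM with GM-CSF and 1.58 FPKM untreated, lies 9.2 kb from Ccl6, at 419.5 FPKM with GM-CSF and 84.1 FPKM untreated.

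The summed chemokine level differed between groups by less than the SD. The shares of some members, among them Ccl6 and Ccl4, differed by more than their SD, and that of Ccl3 by less. The 10 genes summed to 6758 ± 833.7 FPKM in GM-CSF cultures and 6708 ± 809.5 FPKM in untreated cultures (SD, n = 3 each), which was 1.46% ± 0.17 of all FPKM in GM-CSF cultures and 1.40% ± 0.14 in untreated cultures. Ccl3, Ccl4, Cxcl2 and Cxcl3 together made up 93.5% ± 0.78 of the sum in GM-CSF cultures and 98.4% ± 0.35 in untreated cultures. Ccl3 took 39.2% ± 0.40 of the sum in GM-CSF cultures and 39.3% ± 0.10 in untreated cultures. Ccl6 took 6.27% ± 0.73 in GM-CSF cultures and 1.28% ± 0.32 in untreated cultures, and Ccl4 took 24.9% ± 0.72 in GM-CSF cultures and 30.0% ± 0.23 in untreated cultures.

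**Figure D4:**
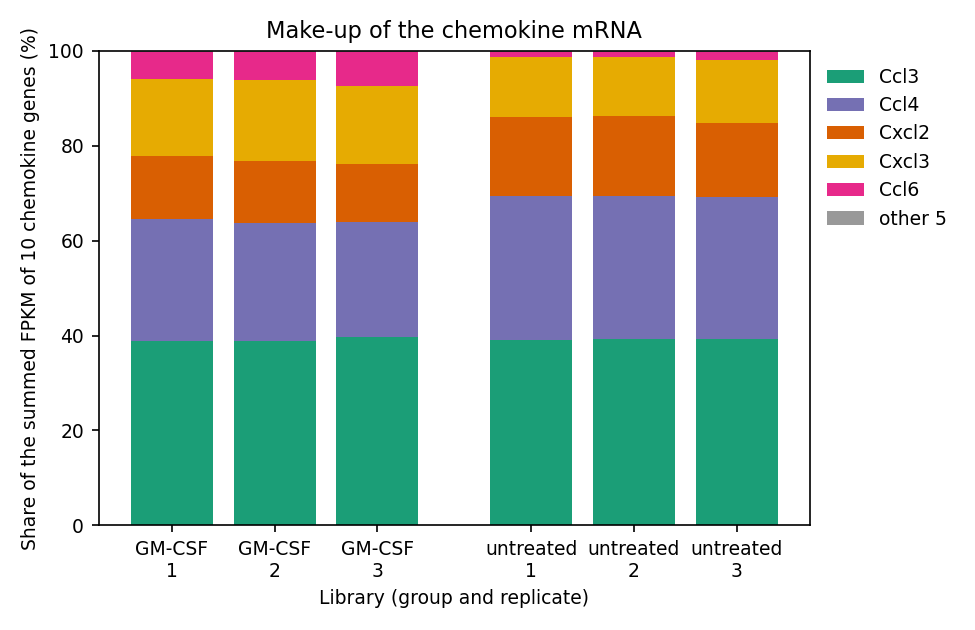
Share of the summed FPKM of the 10 chemokine genes held by Ccl3, Ccl4, Cxcl2, Cxcl3, Ccl6 and the other 5 together, in percent, for each GM-CSF culture (left) and each untreated culture (right). The share of Ccl6 is 5.73% to 7.10% in GM-CSF cultures and 1.04% to 1.64% in untreated cultures.

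Ratios between members within a library do not change when a library is rescaled. For the 6 pairs of the 4 genes above 100 FPKM in every library, the ratio of Cxcl3 to Cxcl2 was 1.23, 1.31 and 1.33 in GM-CSF cultures 1 to 3, against 0.746, 0.735 and 0.847 in untreated cultures 1 to 3. Cxcl3 thus had the higher level of the pair in every GM-CSF library and the lower one in every untreated library. The ratio of Ccl3 to Ccl4 was 1.52, 1.57 and 1.64 in GM-CSF cultures 1 to 3, against 1.29, 1.31 and 1.32 in untreated cultures 1 to 3. Groups did not overlap in 5 of the 6 ratios, the exception being Ccl4 to Cxcl2, at 1.93 ± 0.04 in GM-CSF cultures and 1.83 ± 0.06 in untreated cultures (SD, n = 3 each). With 3 cultures a group, the two-sided exact permutation test cannot give a p below 0.1, which these 5 ratios reached. After adjustment over the 6 pairs it was 0.12. The 6 ratios are built from 4 genes, so they are not independent of each other. How often ratios of other gene pairs do not overlap was not tested.

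**Figure D5:**
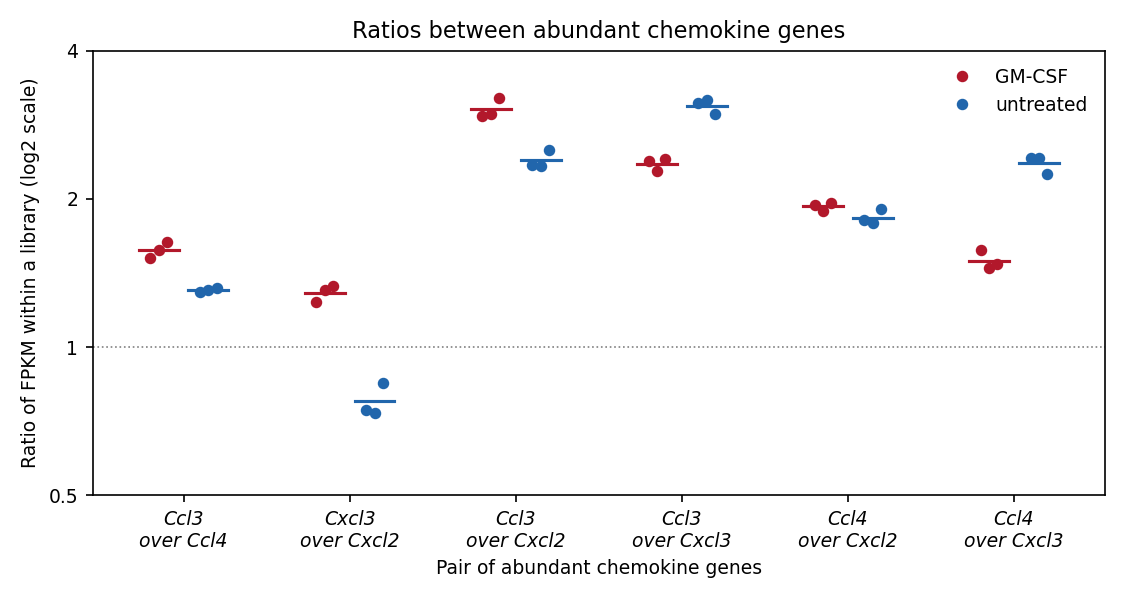
Ratios of FPKM between pairs of Ccl3, Ccl4, Cxcl2 and Cxcl3 within each library, on a log2 axis, with 1 point for each culture, bars at the group means and GM-CSF left of untreated. The ratio of Cxcl3 to Cxcl2 lies above 1 in all 3 GM-CSF cultures and below 1 in all 3 untreated cultures.

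In the order of mean levels, the lead of Ccl3 and then Ccl4 was the same in GM-CSF and untreated cultures. With GM-CSF the order went on with Cxcl3 (1123 ± 148.8 FPKM) and Cxcl2 (873.1 ± 136.2 FPKM), and without it with Cxcl2 (1104 ± 174.6 FPKM) and Cxcl3 (849.7 ± 73.8 FPKM; SD, n = 3 each). Across cultures the values of Cxcl2 and Cxcl3 overlapped in either group, although within each library their order was that of the group means, whereas Ccl3 and Ccl4 did not overlap with each other or with the next gene. Ccl6 followed in both groups, then Ccl5, and the other 4 had means of at most 1.86 FPKM. Ccl9 and Cxcl1 overlapped in untreated cultures and did not in GM-CSF cultures.

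Of 28 further chemokine genes listed, 27 were matched and 3 reached a mean of 1 FPKM. Ppbp, a platelet CXC chemokine whose gene lies 16.0 kb from Cxcl3, fell, at 35.8, 35.7 and 38.6 FPKM in GM-CSF cultures 1 to 3, against 70.4, 63.2 and 64.7 FPKM in untreated cultures 1 to 3 (log2 fold change -0.83 with SE 0.06, adjusted p = 0.0001819 in limma). Ccl22, a ligand of Ccr4, and Pf4, another platelet chemokine, did not pass, at log2 differences of 0.11 (SE 0.26) and -0.22 (SE 0.23). The other 24 had means over all libraries of at most 0.815 FPKM. The highest group mean of Ccl17 was 1.05 FPKM, in GM-CSF cultures, against 0.318 FPKM in untreated cultures, with overlap. Ccl12, Ccl19, Ccl20, Ccl26, Cxcl13 and Cxcl17 were listed at 0 in every library.

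Among receptors of the members, Cxcr2 and Ccr1 rose. Cxcr2, the receptor of Cxcl1, Cxcl2 and Cxcl3, measured 101.4, 107.7 and 118.9 FPKM in GM-CSF cultures 1 to 3, against 23.4, 23.4 and 24.5 FPKM in untreated cultures 1 to 3 (log2 fold change 2.15, SE 0.06). Ccr1 measured 193.3, 187.8 and 201.6 FPKM in GM-CSF cultures 1 to 3, against 137.1, 135.4 and 135.1 FPKM in untreated cultures 1 to 3 (log2 fold change 0.51, SE 0.04). Neither gene's groups overlapped. Ccr3, the eotaxin receptor of eosinophils, and Cxcr6 did not pass, at log2 differences of -0.20 (SE 0.09) and -0.24 (SE 0.17), and Cxcr3 was not tested.

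Neutrophil markers were set beside Cxcr2, which is on that list. Of 9 listed, 8 were matched and 5 tested. S100a8 and Retnlg fell, and Cxcr2 alone of the tested ones rose. The other 2 did not pass, among them S100a9 (log2 difference -0.39, SE 0.14). The summed level, with Cxcr2 included, was 1143 to 1170 FPKM in GM-CSF cultures and 1369 to 1486 FPKM in untreated cultures. Most of it came from Retnlg, with means of 998.6 FPKM in GM-CSF cultures and 1344 FPKM in untreated cultures. Means of S100a9 were 36.9 FPKM in GM-CSF cultures and 48.2 FPKM in untreated cultures, and those of S100a8 were 8.48 and 15.1 FPKM. Camp was at 0, and no library exceeded 1.21 FPKM for Mpo, Ltf or Camp. The part of neutrophils in these values was not tested.

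Ccrl2, an atypical receptor that presents chemerin, fell, with 65.7, 62.7 and 50.4 FPKM in GM-CSF cultures 1 to 3, against 90.1, 94.2 and 78.7 FPKM in untreated cultures 1 to 3 (log2 fold change -0.55 with SE 0.11, adjusted p = 0.0157 in limma). The other 4 atypical receptors listed stayed under 1 FPKM. Among 9 genes for enzymes that cut chemokines, 4 were tested and Mmp9, a gelatinase that cleaves several CXC chemokines, fell, with 28.4 ± 1.32 FPKM in GM-CSF cultures and 50.4 ± 4.33 FPKM in untreated cultures (SD, n = 3 each). Adam17 and Adam10, sheddases of membrane-bound chemokines such as Cxcl16, and the collagenase gene Mmp8 did not pass. Their log2 differences were -0.17 (SE 0.06), -0.04 (SE 0.06) and -0.16 (SE 0.10).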

How the data were processed

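Per the labels' protocols, Trizol-extracted RNA was made into stranded mRNA libraries (Illumina TruSeq). Cufflinks, TopHat, TopHat2, bcl2fastq 1.8.4 and the build mm10 appear in the submitters' processing notes, with no order or settings. The authors deposited FPKM, with a confidence interval and a coverage, for 30374 transcripts per library. The deposited coverage served to obtain depth and, multiplied by transcript length, the aligned sequence behind each member. The deposited FPKM of the members were 0.991 to 1.495 times the midpoint of their own deposited interval, by nearly the same factor in every library for the abundant members, so levels set between genes are less certain than comparisons between groups, and the intervals were not used. No source used here describes the handling of multiply mapping reads.

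FPKM was summed per gene and locus. Genes whose mean reached 1 FPKM (10140) were tested on log2(FPKM + 1) with limma 3.58.1 in R 4.3.3, with Benjamini-Hochberg adjustment over all of them and a threshold of 0.05, without a replicate block. The log scale understates changes of low genes. The fit was tested on simulated data. All members were named, as were the receptors, and in every other list the genes that passed and the 3 with the highest mean, except that some listed genes are not reported here; 2 genes on either side of Ccl6 were named by rank, passing over predicted, Rik clone and small RNA genes. Marker lists are given beside Ccl5, Ccl6 and Cxcr2, whichever way they moved. Members, lists and ratio pairs were chosen with earlier results of these data known. Gene positions are from GENCODE M21 and promoters from RefSeq. The 17 alternatives are described in the closing section.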

Additional observations from a re-analysis of the deposited data

How the results depend on the processing

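Ccl6 passed the threshold in all 17 alternatives, with log2 fold changes of 2.21 to 2.41. The number of chemokine genes that passed was 3, and without one culture in turn it lay between 1 and 3. It was 1 (Ccl6) without GM-CSF replicate 1 and without GM-CSF replicate 2. Ccl5 lost its call there, with log2 fold changes of -0.63 and -0.58. Cxcl3 lost its call with no filter (log2 fold change 0.40, adjusted p = 0.1122), no variance trend (adjusted p = 0.0654) and the highest transcript alone (adjusted p = 0.0714), and its log2 fold change lay between 0.33 and 0.45 in the 5 leave-one-out fits that ended the call. The causes were not tested.

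With the replicate number as a block, 5 chemokine genes passed, Ccl4 (adjusted p = 0.0244) and Cxcl2 (adjusted p = 0.0102) being added, both lower with GM-CSF, and 1991 (19.6%) of all tested genes passed. The numbers share no stated origin. Over all tested genes, deviations of same-numbered libraries correlated at -0.03, 0.05 and -0.02, and 2 of 6 libraries correlated best with their own number. Equal numbers are therefore not treated as pairs in the main fit. For Ccl3, Ccl4, Cxcl2 and Cxcl3, however, culture 3 was the lowest of both groups. With the block their SE was 0.040, 0.045, 0.040 and 0.043, against 0.117, 0.136, 0.155 and 0.112 without it. Whether equal numbers mark a shared preparation is not known, so the calls of Ccl4 and Cxcl2 depend on this choice.

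Over all genes, 2209 passed, between 1516 and 1787 without one culture. Risen and fallen genes numbered 941 and 1111 after quantile normalization and 789 and 913 after rescaling to one sum. Ccl9, Cxcl1 and Ccl3 passed in no alternative run. Cxcl10 and Cxcl16, tested only with no filter, did not pass (adjusted p = 0.2908 and 0.3369). Among the members under about 2 FPKM, Cxcl1, Cxcl10 and Cxcl16 rested on at most 1.69, 1.37 and 1.92 kilobases of aligned sequence per library. Ccl9 rested on 4.12 to 6.69 kilobases. The part of depth in their results was not tested.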
